A study of Mus musculus with 31 samples.

Results

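Haptoglobin and hemopexin, haem oxygenase, the enzymes of haem synthesis and the biliverdin reductases were followed in the livers of 31 BXD mouse strains. The genes are Hp, Hpx, Hmox1, Alas1, Alad, Urod, Fech, Blvra and Blvrb. A probe was taken where the platform annotation gave it one of these 9 symbols, which left 1 probe for each gene: 9 of the 15095 genes named on the array, and 9 of the 21765 probes with a value on every array. BXD strains are recombinant inbred lines bred from C57BL/6J and DBA/2J mice, and which parental allele a strain carries at any of these genes was not used here. On each array the whole-liver RNA of a single BXD/TyJ strain, pooled from 3 male mice aged 8 weeks, was set against one C57BL/6J pool of 9 males of the same age. All 31 arrays shared this C57BL/6J RNA, the dyes were never exchanged, and no strain had a second array, so the spread between strains holds array error as well.

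Values are log2 ratios, likely of strain over C57BL/6J. The strain RNA carried the red dye, which limma sets over green, but neither the direction nor the log base is given in the sources used here. A level of 0 means no difference in normalized signal from the reference, and the ratio says nothing on how abundant a transcript was. The dyes were never exchanged, so a dye effect, or a trait of the single reference pool, would shift all arrays alike. In the panel means, such a shift cannot be told apart from a difference between the strains and C57BL/6J. In whole liver, fewer cells of a type and less RNA per cell cannot be told apart.

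Liver is the main source of the plasma proteins that keep free haemoglobin and haem from doing oxidative damage. Haptoglobin (Hp) binds haemoglobin for uptake by macrophages through Cd163, hemopexin (Hpx) binds haem for uptake through Lrp1, and both are acute phase proteins. Hepatocytes also make much haem themselves, largely for cytochrome P450 enzymes: Alas1 makes 5-aminolevulinate and sets the rate, Alad and Urod act in the middle of the pathway, and Fech inserts the iron. Haem oxygenase (Hmox1) opens the ring and gives biliverdin, which the biliverdin reductases Blvra and Blvrb reduce.

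Promoters of 6 of the 9 genes are in a RefSeq table of build GRCm38.p6, from 250 bases before to 50 bases after the annotated start. The Hpx promoter is shown because its probe was the one that varied most closely with Hp among these genes, and the Alas1 promoter because this enzyme sets the rate of synthesis. Capitals in the Hpx promoter (chr7:105600067-105600366, minus strand) mark matches on either strand to TTNNGNAA, letters of the type bound by C/EBP factors.
Hpx: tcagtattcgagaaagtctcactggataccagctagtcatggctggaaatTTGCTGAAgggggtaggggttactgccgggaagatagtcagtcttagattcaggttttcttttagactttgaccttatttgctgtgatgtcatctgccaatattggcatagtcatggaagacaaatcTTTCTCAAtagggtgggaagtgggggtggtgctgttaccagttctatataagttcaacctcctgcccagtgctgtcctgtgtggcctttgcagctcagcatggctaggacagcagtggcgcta
Capitals in the Alas1 promoter (the second annotated start, chr9:106247681-106247980, minus strand) mark matches on either strand to the motif of nuclear respiratory factor 1.
Alas1: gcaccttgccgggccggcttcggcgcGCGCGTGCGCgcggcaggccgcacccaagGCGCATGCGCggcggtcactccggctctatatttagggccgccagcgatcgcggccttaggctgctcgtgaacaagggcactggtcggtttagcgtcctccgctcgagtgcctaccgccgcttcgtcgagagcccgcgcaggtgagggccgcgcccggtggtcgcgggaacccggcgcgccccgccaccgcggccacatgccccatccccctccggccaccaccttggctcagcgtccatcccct
The Hpx window held 2 matches, and 40.7% of the 32851 promoters in the table held at least 1. The Alas1 window also held 2 matches, and 4.60% of all promoters held any. The E-box CACGTG stood in the promoters of Alad and Urod and in 7.15% of all promoters. The STAT letters TTCNNNGAA, searched as well, were found in none of these genes except before the first annotated start of Alas1, and in 8.30% of all promoters. The antioxidant element letters TGACNNNGC stood in the promoters of Hpx and Blvra and in 12.4% of all. The motifs were searched on both strands and do not overlap in the windows shown. A match describes letters only, and no binding was measured.

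The 4 arrays hybridised with strains 23, 28, 40 and 42 resembled the others little. The median r of such an array with all others lay between 0.057 and 0.37; that of strain 38 was 0.57, and the other 26 strains reached 0.67 or more. The 4 arrays thus stood apart, and results that rest on them are given with and without them. Probes whose number is a multiple of 8 were shifted downward as a class, with a median panel mean of -0.58 against 0.04 at other places, and none of the 9 probes is among them. Names stand for single probes: over 902 genes with 2 probes, panel means of the pair agreed in sign in 47.2% and the median correlation between them across strains was 0.01. Across these genes, the panel means of the 2 probes had r = -0.06. This is no more agreement than unrelated probes would give. None of the 9 genes had a second probe to check it against, and whether a probe measured the gene it is labelled with was not tested. Any name may therefore be wrong, and gene names here are only those of the annotation. Hepatocyte markers do not test tissue identity here, since a ratio between livers holds no level. Of 19 hepatocyte probes, 11 were higher than the reference and 4 lower, where 37.4% of all probes were higher and 37.6% lower.

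Hp, Hpx and Fech had ratios well above 0 in almost all strains, and the mean of Alas1 was slightly above 0. Across the panel, 5 of the 9 probes were higher than the reference, none was lower, and 4 did not pass (limma, Benjamini-Hochberg adjusted p under 0.05 over all probes; for the count of 0 lower, no probe had a mean below 0 at an unadjusted p under 0.05 either). The same test passed for 75.0% of all probes, 37.4% higher and 37.6% lower, so passing it is common. These shares are also the background for the counts of higher and lower probes in each gene list below. When the mean had to lie beyond 0.2, Hp, Hpx and Fech passed, 3 of 9, against 33.2% of all probes and 14.6% in the upward direction. The median of the 9 panel means was 0.07, against 0.00 over all probes. The test leaves out the spread of the control, because the C57BL/6J pool is its only sample.

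**Figure D1:**
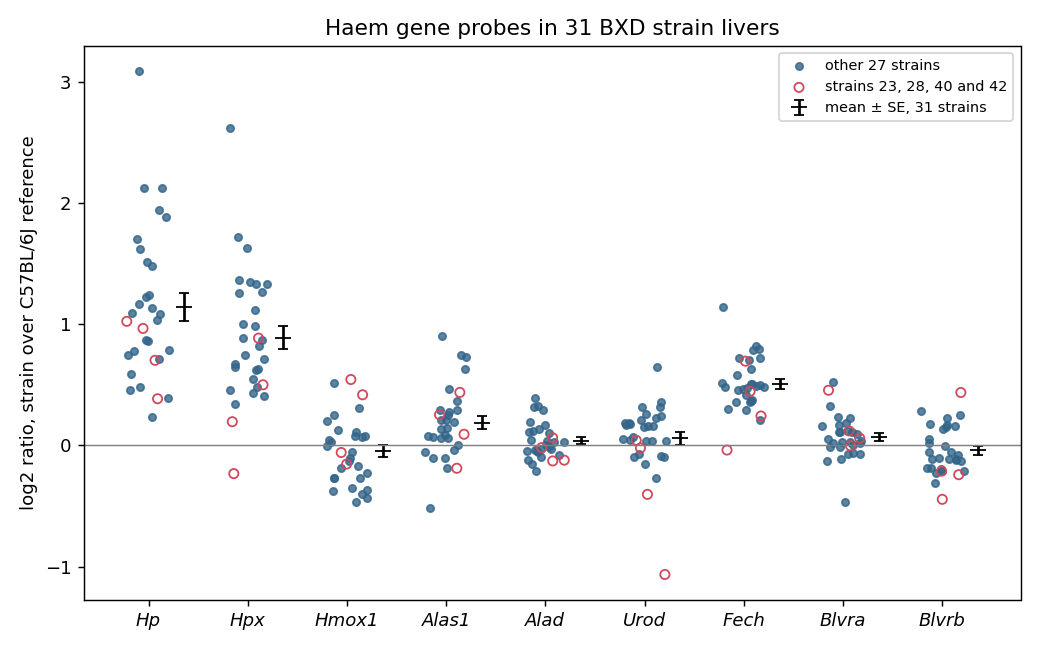
Log2 ratio (vertical axis, likely strain over C57BL/6J) of the 9 haem gene probes, with 1 point for each of the 31 strains. Open points are strains 23, 28, 40 and 42, and the bars give the mean ± SE; Hp lies above 0 in all strains, and Hpx and Fech in 30 of 31.

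The scavengers came first in size. The lowest Hp ratio was 0.24 in strain 6, the median 1.04 and the highest 3.09 in strain 22. Strain 22 stood alone, 0.96 above strains 5 and 15, which both reached 2.13, and at the low end strains 6, 40 and 21 lay between 0.24 and 0.39. The mean was 1.15 ± 0.11 (SE, n = 31), a ratio of 2.21-fold, and all 31 strains were above 0 (limma adjusted p = 1.2e-11). Its SD over strains, 0.63, exceeded that of 96.8% of all probes. Hp was also among the highest ratios within single livers: it ranked 2nd of all probes on its best array, and its median rank was 222.

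Hpx ran from -0.23 in strain 40 through a median of 0.82 to 2.62 in strain 22. Again strain 22 was alone at the top, 0.90 above strain 33 at 1.72, with strain 27 next at 1.64. Strain 40, one of the arrays that stood apart, was the only strain below 0, and strain 28, another of them, was next lowest at 0.20. The mean was 0.89 ± 0.10 (SE, n = 31), 1.86-fold (limma adjusted p = 1.3e-10), and the SD of 0.54 exceeded that of 94.3% of probes. Without the 4 arrays the means were 1.20 for Hp and 0.97 for Hpx, and 78.1% of all probes passed the test.

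Of the 4 synthesis enzymes of the set, ferrochelatase had the highest mean. Fech ranged from -0.04 in strain 40 to 1.15 in strain 22, with a median of 0.48. Strain 22 was again the highest, and strain 40 the only one below 0. The mean of 0.51 ± 0.04 (SE, n = 31) is 1.42-fold (limma adjusted p = 2e-13). Strains differed less here than for the scavengers, with an SD of 0.22, above that of 42.4% of probes.

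Alas1, the rate-setting enzyme, ranged from -0.52 in strain 11 to 0.90 in strain 15, with a median of 0.15. Strains 39 and 38 followed strain 15 at 0.75 and 0.73, and strain 11 lay 0.33 below its nearest neighbour. The mean was 0.19 ± 0.05 (SE, n = 31), 1.14-fold, with 24 strains above 0 (limma adjusted p = 0.0017). It did not pass when a mean beyond 0.2 was asked for (limma adjusted p = 1).

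Alad, which joins 2 aminolevulinate molecules, was the quietest of the set. It ranged only from -0.21 in strain 32 to 0.39 in strain 8, with a median of 0.01, and its mean of 0.04 ± 0.03 (SE, n = 31) did not pass (limma adjusted p = 0.22). Its SD of 0.15 exceeded that of only 4.65% of all probes. DBA/2J mice are known to carry extra copies of Alad. Among the BXD strains, the widest gap between neighbouring strains was 0.10, with 4 strains above it and 27 below.

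Urod, uroporphyrinogen decarboxylase, turned on 1 array. It ranged from -1.07 in strain 42 to 0.65 in strain 33, with a median of 0.07. Strain 42 lay 0.66 below strain 40, the next lowest at -0.40, and both are arrays that stood apart. The mean of 0.06 ± 0.05 (SE, n = 31) did not pass (limma adjusted p = 0.30). Without strain 42 the mean was 0.10 and passed (adjusted p = 0.023), and without the 4 arrays it was 0.12 (adjusted p = 0.0035).

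The genes of haem breakdown had small means. Hmox1 ranged from -0.47 in strain 32 to 0.54 in strain 42, with a median of -0.06. The 3 highest strains were 42, 22 and 23, of which 42 and 23 are arrays that stood apart, and strains 32, 31 and 29 were the lowest. The mean of -0.05 ± 0.05 (SE, n = 31) did not pass (limma adjusted p = 0.36), with 13 strains above 0 and 18 below.

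The 2 biliverdin reductases had small means of opposite sign. Blvra ranged from -0.47 in strain 22 to 0.52 in strain 19, with a median of 0.06. The strain that was highest for Hp, Hpx and Fech was thus the lowest for Blvra, 0.34 below its neighbour. Its mean of 0.07 ± 0.03 (SE, n = 31) passed by a narrow margin (limma adjusted p = 0.049), and 21 of the 31 analyses that left out a single strain lost that call. Without the 4 arrays the mean was 0.06 (adjusted p = 0.11), and with the place correction, which removes the median shift of each of the 8 probe places, 0.03 (adjusted p = 0.41), a setting in which 73.9% of all probes passed. Blvrb ranged from -0.45 in strain 40 to 0.44 in strain 42, with a median of -0.10 and 20 strains below 0. Its mean of -0.04 ± 0.04 (SE, n = 31) did not pass (limma adjusted p = 0.33), but it was -0.10 and passed with the place correction (adjusted p = 0.011).

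A few strains were extreme for many of the genes. Strain 33 was among the 5 highest for 8 of the 9 genes, all but Fech, while 13.1% of all probes had it among their 5 highest strains. Strain 15 was among the 5 highest for 6 genes, against 18.2% of all probes, and strain 22 for 5, against 14.2%. At the other end, strain 40 was among the 5 lowest for 6 genes, but 32.0% of all probes had it there, and strain 32 was among the 5 lowest for 5, against 14.8%. Strain 22 combined the highest Hp, Hpx and Fech with Alas1 at 0.06 and Alad at -0.09, both below the mean of the panel. Strain 33 was high at every step except Fech: Hp was 1.89, Hpx 1.72, Hmox1 0.25, Alas1 0.63, Alad 0.33, Urod 0.65, Fech 0.48, Blvra 0.33 and Blvrb 0.25. These are counts without a test.

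**Figure D2:**
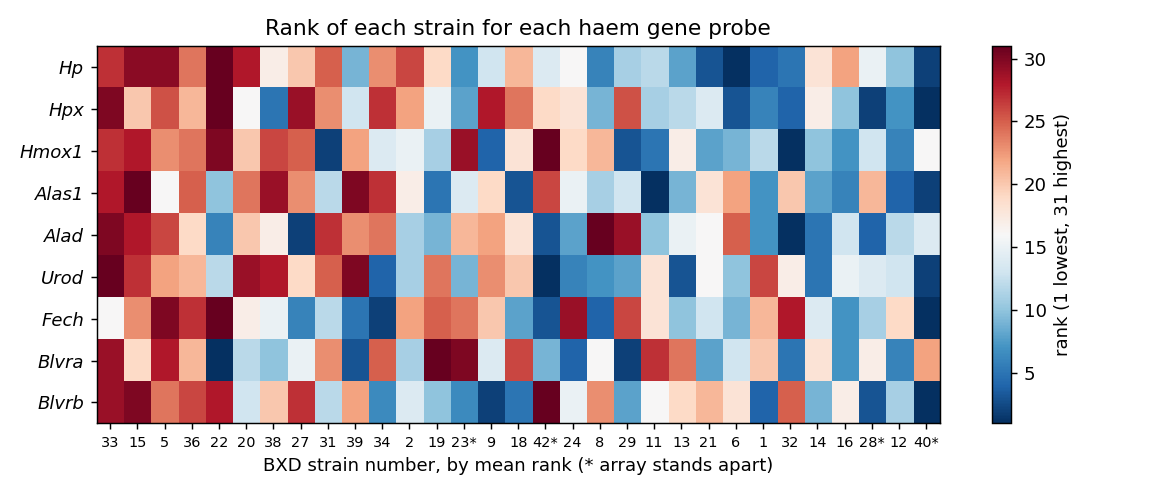
Rank of each strain (colour, 1 lowest to 31 highest) for the 9 haem gene probes (rows), with strains along the horizontal axis by their mean rank. Strain 33 is at the left with 8 genes among its 5 highest ranks, strain 40 at the right with 6 among its 5 lowest, and asterisks mark the 4 arrays that stood apart.

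Hp and Hpx varied together across strains. Of the 36 pairs among the 9 genes, theirs was the only one to pass (limma regression, Benjamini-Hochberg adjusted over all 195876 relations of the 9 probes with the probes tested, in both directions of the regression). The background was 1.17% of relations passing, 0.662% positive and 0.505% negative. Of the 36 correlations, 26 were positive and 10 negative, with a median of 0.19, and 9 had a Pearson permutation p under 0.05 and 6 a Spearman permutation p under 0.05 before adjustment. All permutation tests are two-sided with 100000 resamples over 31 strains.

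For Hp and Hpx, Pearson r was 0.75 (permutation p = 2e-05) and Spearman rho 0.69 (permutation p = 5e-05), with a limma adjusted p of 0.0028. The 5 strains with the highest Hp were 22, 5, 15, 20 and 33, with Hpx at 2.62, 1.33, 0.98, 0.82 and 1.72. Strain 22 was far above the others in both, but the relation did not rest on it alone. Without strains 22 and 5, the farthest from the median of Hp, r was 0.60, without strains 22 and 40, the farthest for Hpx, it was 0.59, and without the 4 arrays it was 0.75. Leaving out any 1 strain kept the pair past the threshold. With 3 principal components of the arrays as covariates it was not (r = 0.66, limma adjusted p = 0.09), nor on ranks over strains (0.69, adjusted p = 0.11), a setting in which none of the 195876 relations passed.

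**Figure D3:**
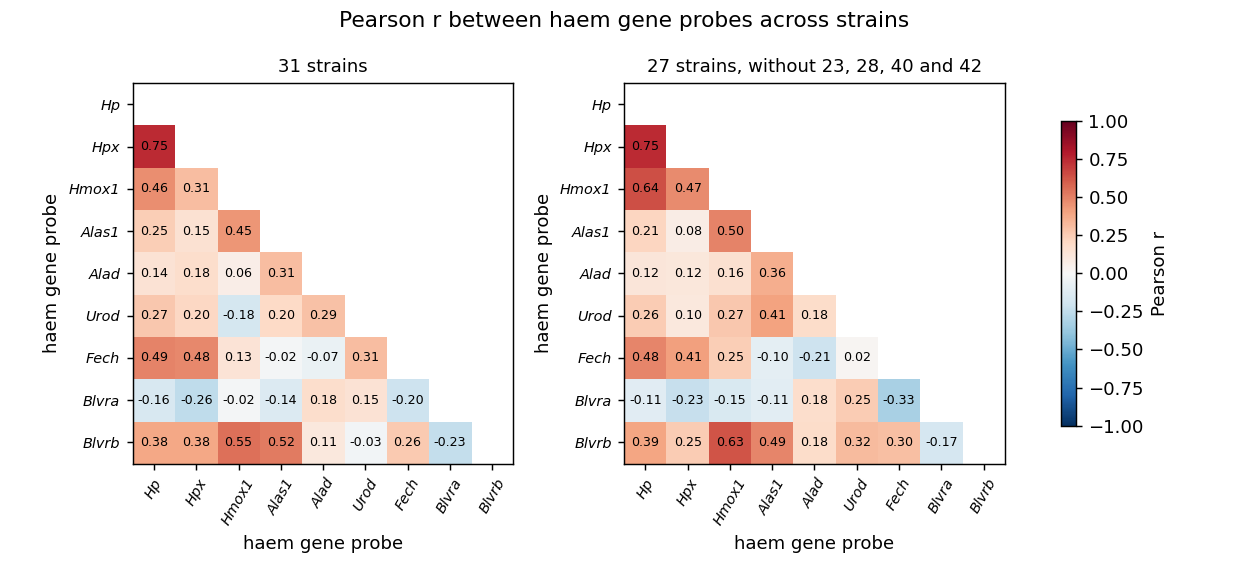
Pearson r between the 9 haem gene probes over all 31 strains (left) and over 27 strains without 23, 28, 40 and 42 (right), on a colour scale from -1 to 1. Hp and Hpx are at 0.75 in both, and Hp with Hmox1 is at 0.46 over all strains and 0.64 over 27.

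Hmox1 was correlated with Hp at a lower level. Over all strains r was 0.46 (permutation p = 0.0091) and rho 0.37 (permutation p = 0.044), which did not pass (limma adjusted p = 0.17), and without strains 22 and 5 r was 0.30. Strains 23 and 42, which had high Hmox1, had Hp at 0.70 and 0.97, below its median. Without the 4 arrays r was 0.64 and the pair passed (adjusted p = 0.039), where 0.729% of all relations passed, 0.441% with a positive sign. Hmox1 with Hpx had r = 0.31 (permutation p = 0.088), rho = 0.24 (permutation p = 0.18) and a limma adjusted p of 0.46, and r was 0.13 without strains 22 and 40.

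Within breakdown and synthesis, Hmox1, Blvrb and Alas1 showed 3 correlations of similar size. Hmox1 with Blvrb had r = 0.55 (permutation p = 0.0011) and rho = 0.51 (permutation p = 0.0042), with a limma adjusted p of 0.08. Without strains 42 and 22 r was 0.39. Without the 4 arrays r was 0.63 and rho 0.60, and the pair did not pass there. The pair passed without strain 23 (r = 0.65, adjusted p = 0.032), without strain 32 (0.64, adjusted p = 0.032) and with 1 principal component as covariate (0.66, adjusted p = 0.036). Its call thus changed with the strains and the covariates used. Alas1 with Blvrb had r = 0.52 (permutation p = 0.0025) and rho = 0.49 (permutation p = 0.006), which did not pass (limma adjusted p = 0.12), and r was 0.49 without strains 15 and 11. Alas1 with Hmox1, the enzymes that start synthesis and breakdown, had r = 0.45 (permutation p = 0.012) and rho = 0.44 (permutation p = 0.014), which did not pass (limma adjusted p = 0.19). It was 0.51 without strains 42 and 22 and 0.50 without the 4 arrays.

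**Figure D4:**
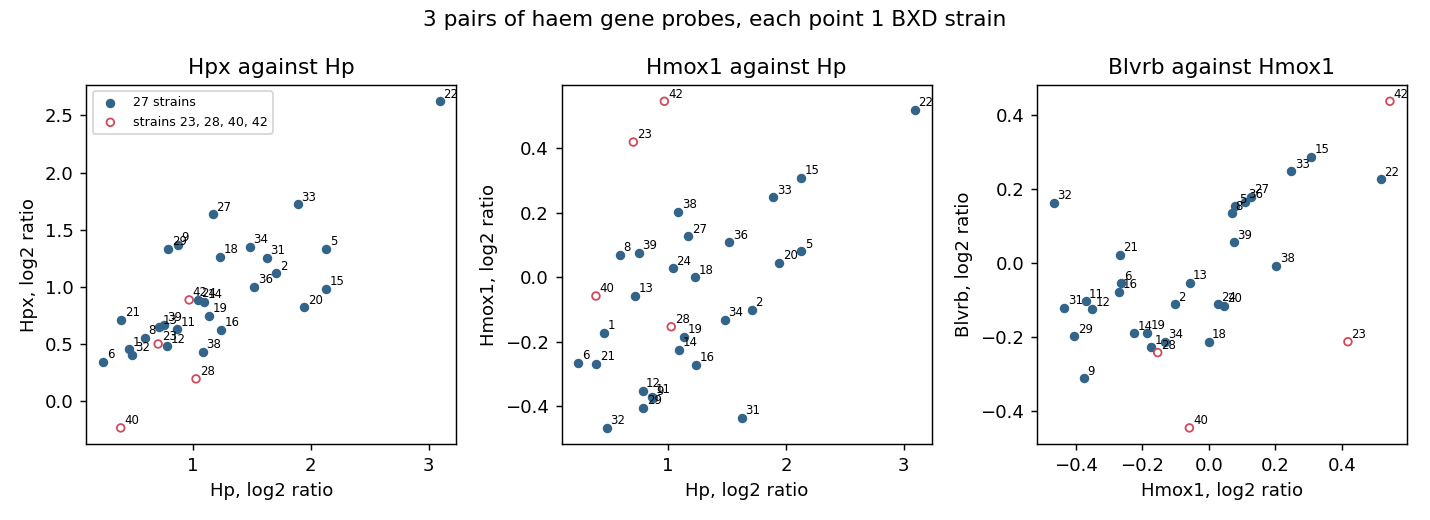
Log2 ratios of 3 pairs of probes, Hpx against Hp, Hmox1 against Hp and Blvrb against Hmox1, with 1 numbered point per strain and open points for strains 23, 28, 40 and 42. Strain 22 is at the upper right for Hp and Hpx, with r = 0.75 in that panel, 0.46 in the middle and 0.55 on the right.

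The correlation of Fech with the scavengers was small without the extreme strains. Its r was 0.49 with Hp (permutation p = 0.0053) and 0.48 with Hpx (permutation p = 0.0081), but rho was 0.28 (permutation p = 0.12) and 0.21 (permutation p = 0.25), and neither pair passed (limma adjusted p = 0.14 and 0.16). Without strains 22 and 5 the correlation with Hp was 0.17, and without strains 22 and 40 the correlation with Hpx was 0.01. Both relations therefore rest on those strains. Blvrb had r = 0.38 with Hp and 0.38 with Hpx (permutation p = 0.033 each), with rho of 0.29 and 0.25 (permutation p = 0.12 and 0.17), and neither passed (limma adjusted p = 0.33 and 0.34).

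No pair among the 4 synthesis enzymes of the set passed. Alas1 with Alad had r = 0.31, Alas1 with Urod 0.20 (permutation p = 0.27, rho = 0.32 with permutation p = 0.076, limma adjusted p = 0.70), Alad with Urod 0.29 and Urod with Fech 0.31, while Alas1 with Fech was at -0.02 and Alad with Fech at -0.07. The limma adjusted p of the 6 pairs lay between 0.48 and 0.98. Apart from Alas1 with Urod, their permutation p values, in that order, were 0.091, 0.11, 0.094, 0.93 and 0.72, and their Spearman rho 0.26, 0.25, 0.25, -0.06 and -0.07 (permutation p = 0.16, 0.17, 0.18, 0.77 and 0.70). Urod with Fech had r = 0.02 without the 4 arrays. Blvra and Blvrb, which reduce biliverdin isomers, had r = -0.23 (permutation p = 0.21, limma adjusted p = 0.66) and rho = -0.23 (permutation p = 0.22). Blvra had negative r with 6 of the other 8 genes, the lowest being -0.26 with Hpx (permutation p = 0.16). Without strain 22 r was 0.24 with Hp and 0.11 with Hpx.

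Related genes of the same pathways gave mixed means. Among 8 probes of haem synthesis, Alas1, Fech, Uros and Alas2 were higher, Cpox and Ppox were lower, and Alad and Urod did not pass. Their median mean was 0.12, against 0.00 over all probes. Uros, which closes the porphyrin ring, was at 0.28 ± 0.05 (SE, n = 31; limma adjusted p = 4.3e-06), and Ppox, which acts just before Fech, was lower at -0.27 ± 0.03 (limma adjusted p = 4.2e-09) in 28 of 31 strains. Cpox, which supplies Ppox, was at -0.12 ± 0.05 (limma adjusted p = 0.02). Alas2, the erythroid form of the first enzyme, was higher at 0.56 ± 0.08 (limma adjusted p = 5.4e-08), from -0.24 in strain 38 to 1.42 in strain 27. Its correlation with Alas1 over strains was -0.05.

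In breakdown, 1 of 4 probes passed, Blvra. Hmox2, the constitutive haem oxygenase, sits at one of the every-8th places; it was at -0.25 ± 0.12 (SE, n = 31; limma adjusted p = 0.056), from -1.13 in strain 27 to 1.75 in strain 40, and turned to 0.33 (adjusted p = 0.0016) with the place correction. No direction can be given for it. Among 8 scavenging probes, 5 were higher and 2 lower, where 37.4% of all probes were higher and 37.6% lower. Cd163, the macrophage receptor for haptoglobin bound to haemoglobin, was higher at 0.24 ± 0.05 (limma adjusted p = 1.4e-05), and its r was 0.43 with Hp and 0.29 with Hpx, neither of which passed. Lrp1, the hemopexin receptor, was higher at 0.25 ± 0.06 (limma adjusted p = 0.00035) at an every-8th place, and at 0.83 with the place correction (adjusted p = 1.1e-12); its r was 0.23 with Hpx. Ambp, the precursor of the haem-binding alpha-1-microglobulin, was higher at 0.49 ± 0.06 (limma adjusted p = 5.8e-09). Both probes of Lrp2, a kidney uptake receptor, were lower, at -0.11 and -0.29, and Alb, whose product also carries haem, was at -0.17 and did not pass.

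Of 16 probes for haem and porphyrin transport and binding, 6 were higher, 3 lower and 7 did not pass. Over all probes 37.4% were higher and 37.6% lower. Slc46a1, a folate and haem carrier, was higher in 31 of 31 strains at 0.66 ± 0.04 (limma adjusted p = 2.7e-16), and the haem-binding protein Hebp1 was higher at 0.31 ± 0.05 (limma adjusted p = 5.3e-07). Abcg2, a porphyrin exporter, and Slc25a38, the mitochondrial glycine carrier, were at -0.60 and -0.46, both at every-8th places; with the place correction they were at -0.02 (limma adjusted p = 0.77) and 0.11 (adjusted p = 0.057), so no direction is given. Slc25a39, a mitochondrial carrier, followed Urod with r = 0.59 (limma adjusted p = 0.041), and 0.65 without the 4 arrays. The haem-binding membrane protein Pgrmc1 ran against Alas1 with r = -0.61 (limma adjusted p = 0.033) and -0.71 without the 4 arrays. Each was the only 1 of the 16 to pass with that gene, where 2.06% of all probes passed with Urod and 0.340% with Alas1. Pgrmc1 was also the only 1 of the 16 to pass with Hmox1 (r = -0.58, limma adjusted p = 0.048), where 5.09% of all probes did. Without the 4 arrays that r was -0.53, which did not pass (adjusted p = 0.12).

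Regulators gave means of both signs. Of 16 probes for haem sensing and the control of Alas1, 9 were lower and 5 higher, against 37.6% and 37.4% of all probes. Their median mean was -0.15, and 5 of the 16 are at the downshifted every-8th places. Eif2ak1, the haem-regulated kinase, was higher at 0.68 ± 0.07 (SE, n = 31; limma adjusted p = 3e-11). The 2 probes of Hnf4a disagreed, at -0.79 and 0.20, and no direction can be given for that gene. Known regulators of Alas1 did not pass with it: r was 0.40 with Ppargc1a, -0.19 with Nr1d1 and -0.09 with Nrf1. Nfe2l2, which switches on Hmox1 under oxidative stress, had r = -0.20 with Hmox1. It ran against the scavengers, with r = -0.69 with Hp (limma adjusted p = 0.012) and -0.60 with Hpx (adjusted p = 0.039, and 0.056 without the 4 arrays). It was the only 1 of the 16 probes to pass with either, where 1.20% of all probes passed with Hp and 0.924% with Hpx. The lowest ratio of Nfe2l2 was -0.90, in strain 22. Of 23 probes of Nfe2l2 targets, Gsta3 passed with Hp (r = 0.57) and Fth1 with Hpx (r = 0.59). Without the 4 arrays Fth1 with Hpx was at 0.49 and did not pass. Of the 23, 15 had r above 0 with Hp and 15 with Hpx, with a median of 0.12 for both. Bach1, the haem-sensing repressor of Hmox1, had r = 0.43 with it, which did not pass.

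Of 36 probes of other acute phase genes, none passed with Hp or with Hpx (limma, 0 of 36 each; at unadjusted p under 0.05, 7 with Hp and 8 with Hpx, where 11.8% and 14.1% of all probes did). The highest correlation with Hp was 0.55, for Cebpb, which did not pass (limma adjusted p = 0.056). It was 0.49 for the metal-binding Mt1 and for Orm2, and 0.47 for Agt. The pentraxin Apcs was at 0.28 and the serum amyloid Saa1 at 0.27. Lbp, which binds lipopolysaccharide, was at -0.23, at an every-8th place. Of the 36 correlations with Hp, 19 were above 0, and their median was 0.02. In the panel mean, 17 of the 36 probes were higher and 9 lower, against 37.4% and 37.6% of all probes. Of 19 hepatocyte probes, 2 passed with Hp and 2 with Hpx, where 1.20% and 0.924% of all probes did. They were F2, prothrombin, and Apoc3, an apolipoprotein, in both cases. Their r was 0.63 and 0.66 with Hp, and 0.66 and 0.64 with Hpx (limma adjusted p between 0.012 and 0.018). Of the 19, 12 had r above 0 with Hp and 14 with Hpx, with medians of 0.16 and 0.19, and Cps1 was at -0.31 and -0.21. Without the 4 arrays Apoc3 with Hpx was at 0.59 and did not pass (adjusted p = 0.057). With Urod, 4 of the 36 acute phase probes passed, where 2.06% of all probes did. At an unadjusted limma p under 0.05 there were 12, where 22.3% of all probes passed. Cebpb was at r = 0.57 (limma adjusted p = 0.043), and 0.69 without the 4 arrays. The others were Agt, Lrg1 and Saa3, which had r of at most 0.42 without those arrays and did not pass there.

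Over all 31 strains, more probes passed with Hmox1 than with any other gene of the set. Of all probes, 5.09% passed with Hmox1, against 1.20% with Hp, 0.924% with Hpx, 2.06% with Urod, 0.634% with Blvrb, 0.340% with Alas1, 0.170% with Fech, 0.0459% with Alad and 0.0322% with Blvra. Without strain 42, the probes that passed numbered 255 for Hmox1, 183 for Hp and 68 for Urod, against 1107, 262 and 449 with it. Among genes of the lists, Hmox1 was highest with Dbp, the clock output factor, at r = 0.72 (limma adjusted p = 0.0046, 0.70 without the 4 arrays). Dbp was the only 1 of 16 clock probes to pass with Hmox1, where 5.09% of all probes did. Of the 16, 7 had r above 0 with it, and their median was -0.05. The haem enzymes Cyp4a10, a fatty acid hydroxylase, and Cyp2d9 followed with r = 0.68 (adjusted p = 0.0078) and 0.67 (adjusted p = 0.015), and both kept about this size without the 4 arrays, 0.70 and 0.67. Cyp4a14, a close relative of Cyp4a10, had r = 0.55, which did not pass. Of the 27 probes of drug metabolism with haem enzymes, 2 passed with Hmox1, against 5.09% of all probes. Of the 27, 15 had r above 0 with it, and their median was 0.08. The antioxidant enzyme Srxn1, like Hmox1 a known target of Nfe2l2, ran the other way with r = -0.60 (adjusted p = 0.038), and without the 4 arrays at -0.48, which did not pass (adjusted p = 0.26). Srxn1 was the only 1 of 23 probes of Nfe2l2 targets to pass with Hmox1, where 5.09% of all probes did. Most of these targets went the other way from Srxn1: 17 of the 23 had r above 0 with Hmox1, and their median was 0.19.

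Of 10 fasting response probes, 1 passed with Alas1, where 0.340% of all probes did, and the median r of the 10 with it was 0.07. The r of Alas1 with Pck1, the enzyme that opens gluconeogenesis, was 0.62 (limma adjusted p = 0.025, 0.63 without the 4 arrays), and strain 11 was the lowest for both genes. G6pc, which ends gluconeogenesis, had r = -0.36 with Alas1, which did not pass. Tdo2, a haem enzyme that degrades tryptophan, ran against Alas1 with r = -0.62 (limma adjusted p = 0.022). It was the only 1 of the 27 probes of drug metabolism with haem enzymes to pass with Alas1, where 0.340% of all probes did. Most of the list had the opposite sign: 20 of the 27 had r above 0 with Alas1, and their median was 0.12. At an unadjusted limma p under 0.05 there were 7, where 10.1% of all probes passed. For Lyz2 and Cat, the probes disagreed: 1 probe of the macrophage lysozyme Lyz2 had r = 0.68 with Alas1 and the other 0.24, and 1 probe of catalase, a haem enzyme, had r = -0.64 and the other 0.34. Among drug-metabolising haem enzymes, 11 of 27 probes were higher and 6 lower, against 37.4% and 37.6% of all probes. Cyp2b10, which is induced together with Alas1 by phenobarbital, had r = 0.06 with it.

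Blood content was looked at through erythroid markers, because red cell precursors hold haem synthesis genes of their own. Of 18 erythroid probes, 6 were higher and 8 lower, where 37.4% of all probes were higher and 37.6% lower. Hba-a1, the adult alpha-globin, was at 0.12 ± 0.11 (SE, n = 31; limma adjusted p = 0.29), from -0.94 in strain 32 to 1.57 in strain 15, and its r was 0.48 with Hp and 0.48 with Hmox1, neither of which passed. For 2 other erythroid genes, Tfrc and Hba-x, 1 of 2 probes each passed with Hp. These were 2 of the 18 erythroid probes, where 1.20% of all probes passed with Hp. With Hmox1, 1 of the 18 passed, against 5.09% of all probes. Of the 18, 12 had r above 0 with Hp and 11 with Hmox1, with medians of 0.10 and 0.14. The lowest r was -0.34 with Hp, for Epor, and -0.57 with Hmox1, for Rhd. Tfrc, the transferrin receptor, had r = 0.64 with Hp (limma adjusted p = 0.017) and 0.65 without the 4 arrays at the probe with a panel mean of 0.95, and 0.50 at the other, with a mean of 0.01. The Hba-x probe at an every-8th place, for an embryonic globin, had r = 0.58 with Hp (limma adjusted p = 0.046, 0.66 without the 4 arrays) and 0.37 at the other. With Hmox1 the same Hba-x probe had r = 0.60 (limma adjusted p = 0.032), and 0.56 without the 4 arrays, which did not pass (adjusted p = 0.088). Alas2 had r = -0.07 with Hp, -0.31 with Hmox1 and 0.01 with Fech. The part of blood in these values was not tested further. Of 23 Kupffer cell and macrophage probes, 11 were higher and 7 lower, and of 12 neutrophil probes, 5 were higher and 6 lower. Over all probes the shares were 37.4% and 37.6%.

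The probes most like each gene over the 31 strains were named by correlation alone. For Hp they were Tcl1b3, Ahcy, Egfr and Smo, with r between 0.78 and 0.81, and for Hpx Nedd8 (0.76), Hp itself (0.75), Smo (0.73) and Psmb6 (0.71). Smo thus stood near the top for both scavengers. For Hmox1 the nearest was Slamf9 (0.83), at an every-8th place, for Alas1 Gstt2 (0.71), for Alad Phkg1 (0.69), for Fech Il12rb1 (0.74), for Blvra Ccdc88c (0.63) and for Blvrb Vmn1r43 (0.71). The lowest for Blvrb was Cps1, the first urea cycle enzyme, at -0.75. For Urod, Atp5o was at 0.81 over 31 strains and 0.46 over 27, and Bsg at 0.76 and 0.26. Genes next to each of the 9 on its chromosome, 10 per gene, had median correlations between -0.04 and 0.18 with it, and those that passed were Psmd7 with Hp (0.68) and Hmgxb4 with Hmox1 (0.67). These were 1 of 10 neighbouring probes for Hp and 1 of 12 for Hmox1, where 1.20% and 5.09% of all probes passed. No neighbour passed with any other gene of the set.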

How the data were processed

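Liver RNA of 31 BXD strains, 1 array each, was set against pooled C57BL/6J RNA on 2-colour arrays, with 20 ug of RNA labelled. The authors deposited normalized values, read here as log2 ratios. The submitters' processing notes name limma and R 2.0.0, while the log base, direction, background correction and normalization steps are not given. Every array has the same distribution, with a median of -0.001 and an SD of 0.51. No intensities were used, and precision is limited by how many arrays there are.

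Of 23040 features, 1275 were empty, and 16642 of the 21765 tested had 1 gene in the platform annotation, 134 several and 4989 none. Symbols were updated by gene ID through a RefSeq table (GRCm38.p6), which held 15964. With limma 3.58.1 in R 4.3.3, each panel mean was tested against 0, and every probe was regressed on each of the 9, both with eBayes, two-sided, Benjamini-Hochberg adjusted, at 0.05. The adjusted p of a pair is the larger of its 2 regressions. Pearson and Spearman permutation tests used NumPy 2.4.6, with ranks from SciPy 1.17.1. The limma p-values weigh a mean or a slope against the variation between strains that the fit leaves, which includes array error. The fits were tested on simulated data.

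The members, the gene lists and the alternatives were chosen with earlier results of these data known. Candidates to be named from the lists were up to 4 genes by absolute mean among those that passed and up to 4 by SD. All genes of haem synthesis, breakdown and scavenging, and those that passed with a member, also qualified. The 4 highest and 2 lowest correlations per member were considered as well. Only some of the genes that qualified are named, so those named are no full account of what passed. Bach1, Ppargc1a, Nr1d1 and Cyp2b10, as known regulators or partners, and the neighbours Psmd7 and Hmgxb4 were added after their values were seen. So were Epor and Rhd, as the lowest of the erythroid list. Alternatives were centring and scaling, a place correction, leaving out arrays or every 8th probe, a mean beyond 0.2 (treat), robust fits, principal components as covariates, and ranks.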

Additional observations from a re-analysis of the deposited data

How the results depend on the processing

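Of the 9 panel means, Hp, Hpx, Fech and Alas1 kept their direction under every alternative, and each passed under all of them except Alas1 when a mean beyond 0.2 was asked for. Of the 9 probes 5 passed, 3 did beyond 0.2, and 4 to 6 did when single strains were left out. Over the 5 haem pathway lists 37 of 52 probes passed, 71.2% against 75.0% of all probes, 16 did beyond 0.2, 30.8% against 33.2%, and 35 to 39 did when single strains were left out. With the place correction Hmox2 turned to 0.33, Slc25a38 to 0.11, and Alad, which did not pass, to just below 0; no other named mean of the haem pathway lists or globins changed sign. Among pairs, 1 passed; 2 did with 1 principal component, without strains 23, 28, 40 and 42 and also without strain 38, and 0 did with 3 components or on ranks, where limma gave 3 and 6 pairs at an unadjusted p under 0.05. Leaving out single strains gave 1 to 2, with 2 without strain 23 or strain 32. Relations with any probe numbered 2285 and fell to 748 with 1 component, 24 with 3, 1427 without the 4 arrays, 1293 without strain 38 as well, and 0 on ranks (limma, 22169 at an unadjusted p under 0.05). With single strains left out they numbered 762, without strain 42, to 2955, without strain 28. The causes were not tested. Centring and scaling, the place correction and leaving out every 8th probe kept all 4 counts within 1.5 times. No paired analysis was possible because the strains form 1 group and share no replicate numbers with another. Signal over background is unknown, so whether a probe with a small SD, such as that of Alad, measured its transcript was not tested.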
